A study of Mus musculus with 4 samples.

Results

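The 10 genes described here are components of the circadian clock, the molecular oscillator that gives cells a daily rhythm. They were selected by symbol from the deposited table of 54532 mouse genes: Arntl, Clock, Per2, Per3, Cry1, Cry2, Nr1d1, Nr1d2, Dbp and Bhlhe40. All 10 were present and all 10 passed the filter on low counts. RNA sequencing compared epidermal stem cells, the keratinocyte progenitors of the skin, from C57BL/6 mice after 48 h with 30 μg/mL ALP or with 0.06% DMSO as vehicle, with 2 libraries per group. ALP is taken to be the Arctium lappa L. (burdock) polysaccharide of the series title, and no label says whether ALP cultures also received DMSO. Cells of both groups grew in EpiLife medium with HKGS additives. The mice's age, the pooling of animals and the origin of the libraries from separate cultures are not stated, so each p-value reflects only how far these libraries differ, a spread that may be technical. Libraries are called A and B within each group, and these letters pair nothing.

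The clock is a transcriptional feedback loop. The proteins of Clock and Arntl (also called Bmal1) form a heterodimer that binds E-box sequences and activates the Per and Cry genes, and the PER and CRY proteins then inhibit that heterodimer. In an interlocking loop the nuclear receptors of Nr1d1 and Nr1d2 (REV-ERB alpha and beta) repress Arntl at ROR elements, where the ROR receptors activate it, and in a further one DBP and its relatives act at D-box sequences against the repressor NFIL3. Epidermal stem cells have such a clock, known to time their divisions and their response to differentiation cues. In cultures that nothing has synchronised, cells run out of phase and a bulk library averages over them. The labels name no synchronising step and a single time of sampling, so neither phase nor amplitude could be read from these libraries.

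Promoter sequences can be read for letters that match the elements of these loops. RefSeq promoter windows, from 250 bases before to 50 bases after an annotated start (GRCm38.p6), were at hand for 8 of the 10 genes, 11 windows in all, with none for Per2 and Bhlhe40. Each was searched on both strands for CACGTG (E-box), CACGTT (the variant E'-box), TTANGTA (the core of the D-box) and TNGGTCA (a loose core of the ROR element). N stands for any base, so the last 2 patterns admit letters that a stricter form would not. No match overlapped another. The 3 windows below are shown because each carries letters matching the element of a different loop, with all matches in capitals. They are Cry1 at chr10:85185005-85185304 (minus strand), Per3 at chr4:151044616-151044915 (minus strand) and the second annotated start of Arntl at chr7:113207261-113207560 (plus strand), each written 5′ to 3′ along the gene.
Cry1: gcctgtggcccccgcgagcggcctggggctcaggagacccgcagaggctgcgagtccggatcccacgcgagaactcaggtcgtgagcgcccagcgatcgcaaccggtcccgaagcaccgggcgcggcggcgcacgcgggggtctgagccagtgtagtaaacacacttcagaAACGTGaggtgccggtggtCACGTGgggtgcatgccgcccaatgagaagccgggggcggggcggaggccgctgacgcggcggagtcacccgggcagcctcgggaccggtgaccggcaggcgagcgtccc
Per3: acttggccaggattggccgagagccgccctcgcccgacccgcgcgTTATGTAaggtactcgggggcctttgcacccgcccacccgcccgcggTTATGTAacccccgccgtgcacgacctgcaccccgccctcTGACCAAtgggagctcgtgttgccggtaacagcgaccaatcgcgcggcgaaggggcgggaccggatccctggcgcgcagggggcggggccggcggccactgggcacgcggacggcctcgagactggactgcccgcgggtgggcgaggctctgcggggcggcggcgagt
Arntl: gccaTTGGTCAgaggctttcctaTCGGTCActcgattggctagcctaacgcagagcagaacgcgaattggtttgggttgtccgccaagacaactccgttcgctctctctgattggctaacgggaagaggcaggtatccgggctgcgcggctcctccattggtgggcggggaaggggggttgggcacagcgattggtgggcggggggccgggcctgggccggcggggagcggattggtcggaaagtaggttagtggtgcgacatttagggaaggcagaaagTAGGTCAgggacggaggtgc
The Cry1 window held an E'-box on the opposite strand from position -79 to -74 relative to the start and an E-box from -60 to -55. The Per3 window held 2 D-box cores, one beginning at position -205 and the other at -158, and 1 ROR core on the opposite strand. The Arntl window held 3 ROR cores, of which the last spanned positions 31 to 37, within the transcript. An E-box occurred in 1 of the 11 windows, against 7.15% of the 32851 windows of all genes. An E'-box occurred in 3, against 4.68% of all windows, a D-box core in 1, against 6.76%, and a ROR core in 4, against 11% of all windows. The 2 Arntl windows share bases, as do 2 of the 3 Clock windows, and a match is a description of letters, not a bound site.

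**Figure D1:**
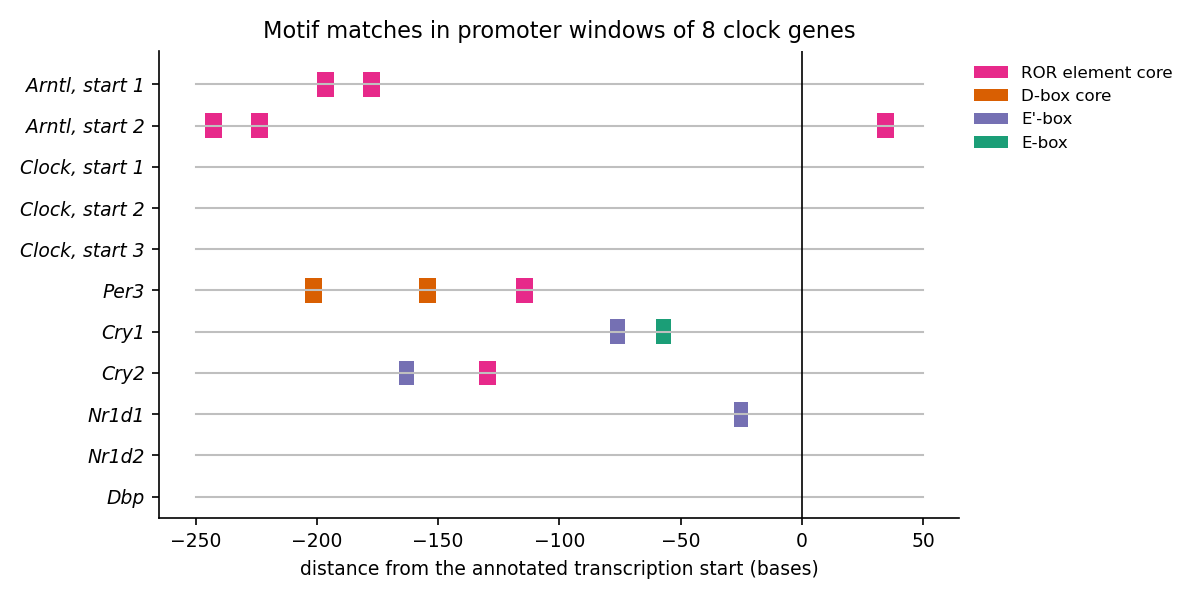
Positions of the 4 motifs in the 11 RefSeq promoter windows of 8 clock genes, as distance in bases from the annotated transcription start (vertical line), with coloured blocks for matches on either strand. The 3 Clock windows and the windows of Nr1d2 and Dbp hold none of the 4.

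Only 1 of the 10 clock genes passed the test for a difference between ALP and control. Bhlhe40, which encodes a basic helix-loop-helix repressor that competes with the CLOCK and BMAL1 proteins at E-boxes, rose 3.05-fold. No member passed as lower. The core activators Arntl and Clock, the Per and Cry genes, the Nr1d receptors and Dbp did not pass. With 2 libraries per group, this does not show that they were unchanged. Outside these 10, transcripts of their partners passed as lower, among them Npas2, Rora, Tef and Nfil3. The test was edgeR's quasi-likelihood F test over the 14056 genes that passed the low-count filter, with a gene called at a Benjamini-Hochberg adjusted p under 0.05. It called 30.9% of all tested genes, 18% higher and 12.9% lower in ALP, so 1 called gene of 10 lies below the share over all genes. The median log2 difference of the 10 genes was -0.14, against -0.0029 over all genes tested. At an unadjusted p under 0.05 there were 4 of 10 members, namely Bhlhe40, Cry1, Cry2 and Per2, against 46.6% of all genes.

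Libraries held between 15766244 and 17430345 counts. Levels are given as CPM, counts scaled to library size with TMM, in which 1 count equals between 0.0566 and 0.0646 CPM. Among the marker lists, basal keratinocyte transcripts had the highest sums in all libraries, with Krt5 and Krt14 at 11170 CPM or more in each. The 6 basal markers (Krt5, Krt14, Itga6, Itgb4, Trp63, Col17a1) summed to 36147 and 29850 CPM in ALP against 48103 and 48336 CPM in controls. Among them Trp63 and Col17a1 fell, Itga6 and Itgb4 rose, and Krt5 and Krt14 did not pass. Summed over 5 suprabasal markers (Krt1, Krt10, Lor, Ivl, Flg), the level was 828 and 39.0 CPM in the ALP libraries and 3219 and 2666 CPM in the controls. Of these 5, Lor and Flg fell, Ivl rose and Krt1 and Krt10 did not pass. ALP replicate B thus had the lowest sums of suprabasal and of basal markers, and also the fewest counts (15766244). Several of the clock genes below were also lowest in ALP replicate B. Of 4 proliferation markers, Top2a, Pcna and Mcm2 rose, Mki67 did not pass and none fell, and their sum was 1388 and 1464 CPM in ALP against 1034 and 1033 CPM in controls. Markers of immune cells (Ptprc, Cd3e, Lyz2, Cd207) summed to 0.340 CPM at most, with Cd3e and Cd207 at 0 in all libraries. The 6 fibroblast markers summed to between 4.46 and 7.93 CPM in ALP and 13.6 and 17.5 CPM in controls. Dcn made up most of the control sums, and fell from 13.1 and 8.57 CPM in controls to 3.07 and 0.517 CPM in ALP. Col1a1 (log2 difference 0.12), Pdgfra (0.22), Col1a2 (-0.05) and Col3a1 (-0.89) did not pass, and Lum was at 0 throughout. Melanocyte markers summed to between 53.7 and 64.7 CPM in ALP and 56.7 and 62.0 CPM in controls. Of the endothelial markers Kdr and Pecam1 rose, with Cdh5 at 0 in ALP replicate A and control replicate B, and the 3 summed to 14.4 and 24.8 CPM in ALP against 4.59 and 6.57 CPM in controls. The part of these shifts in the results below was not tested, and in bulk RNA fewer cells of a type and less RNA per cell cannot be told apart.

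**Figure D2:**
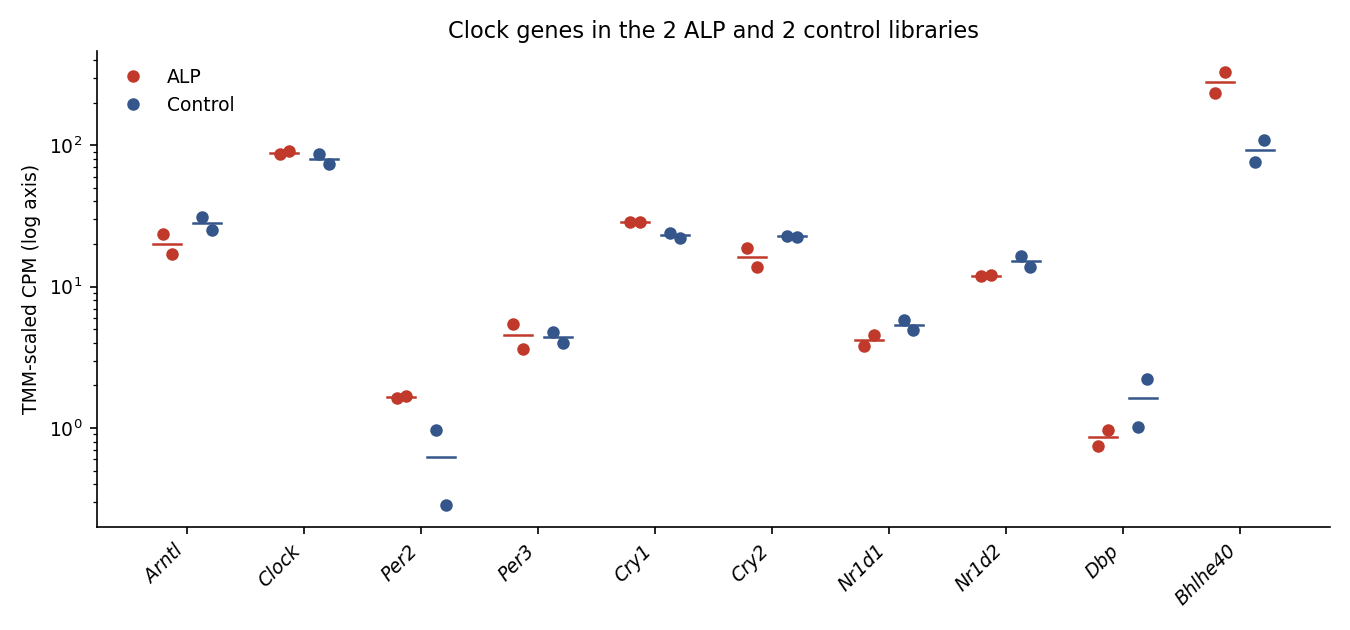
Levels of the 10 clock genes in TMM-scaled CPM on a log axis, with a point per library and a line at the group mean, ALP left of control for each gene. Bhlhe40 stands at 235 and 327 CPM in ALP against 75.7 and 109 CPM in controls, below Clock in control replicate A (87.0 CPM), and Per2 and Dbp lie near 1 CPM.

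Bhlhe40 (chromosome 6, 108660629 to 108666925, GRCm38), also known as Dec1, was counted 4066 and 5063 times in the ALP libraries against 1337 and 1904 times in the controls. This corresponds to 235 and 327 CPM in ALP and 75.7 and 109 CPM in control. Both ALP libraries lay well above both controls, and the distance between the groups exceeded the spread within either. The log2 difference was 1.61 ± 0.23 (SE, n = 2 per group), with a 95% interval of 1.04 to 2.18 and an adjusted p = 0.0151 by edgeR. The groups did not overlap for Bhlhe40, which also held for 75.7% of all genes tested. Its difference stayed between 1.36 and 1.90 with each library left out in turn, but the adjusted p by edgeR was 0.128 with control replicate A left out and 0.0555 with control replicate B left out, fits in which 0 genes passed and 3380 and 4131 had an unadjusted p under 0.05. In the authors' deposited table Bhlhe40 had a log2 fold change of 1.61 and an adjusted p of 1.5e-10, by a test those files do not name. The DESeq2 Wald test on the same counts gave the same log2 difference, 1.61, and the deposited unadjusted p, 1.52e-12. The deposited values are therefore no independent support. An antisense gene covers 2.51% of the exon bases of Bhlhe40 and had 8 counts over all libraries against 12370 for Bhlhe40. Its paralog Bhlhe41 (Dec2), a repressor of the same kind, was counted 22 and 20 times in ALP and 17 and 11 times in control, and its log2 difference of 0.68 ± 0.39 did not pass (adjusted p = 0.224).

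Neither activator passed, and their differences had opposite signs. Arntl (chromosome 7, 113207465 to 113314126) measured 23.4 and 16.9 CPM in ALP against 31.0 and 25.1 CPM in control. Both ALP values were below both controls, but the gap between the groups, 23.4 against 25.1 CPM, was smaller than the spread within either. Its log2 difference of -0.48 ± 0.20 did not pass (95% interval -0.98 to 0.03, adjusted p = 0.122). Clock (chromosome 5, 76209868 to 76304792), which encodes the partner of BMAL1, measured 87.2 and 90.3 CPM in ALP and 87.0 and 73.5 CPM in control. ALP replicate A and control replicate A were nearly equal for Clock. Its log2 difference of 0.15 ± 0.11 had an interval of -0.13 to 0.42 (adjusted p = 0.345).

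Npas2, which encodes a paralog of CLOCK that can take its place beside BMAL1, fell to 0.347 and 0.194 CPM in ALP, against 1.81 and 1.43 CPM in control. It was counted 6 and 3 times in ALP and 32 and 25 times in control, and the exact Poisson 95% intervals of these counts, which cover counting error only, reach 13.1 at most in ALP and start at 16.2 in control. The log2 difference was -2.53 ± 0.48 (adjusted p = 0.0196 by edgeR). DESeq2 gave the gene no adjusted p. Arntl2, the paralog of Arntl, measured 24.2 and 27.1 CPM in ALP and 27.3 and 24.0 CPM in control, and the groups overlapped fully. The interval of its log2 difference, -0.33 to 0.33, was centred on 0.

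Among the repressors of the main loop, the 2 cryptochromes differed in sign and neither passed. Cry1 (chromosome 10, 85131700 to 85185064), whose promoter is printed above, measured 28.9 and 28.7 CPM in ALP against 23.9 and 22.2 CPM in control. The ALP libraries nearly coincided and lay above both controls. Its log2 difference of 0.32 ± 0.12 had an adjusted p = 0.0820 and an interval of 0.03 to 0.61 before adjustment. Cry2 (chromosome 2, 92403646 to 92434043) measured 18.6 and 13.8 CPM in ALP against 22.9 and 22.6 CPM in control. Here the controls nearly coincided and the ALP libraries lay below them, ALP replicate B furthest. Its log2 difference of -0.49 ± 0.18 had an adjusted p = 0.0854. Without ALP replicate A the differences of Cry2 and Arntl were -0.73 and -0.74 and passed, with adjusted p-values of 0.0017 and 0.00258. That fit takes its spread from the 2 controls alone and called 7518 genes. Without ALP replicate B, Cry2 stood at -0.28 and Arntl at -0.25, and neither passed.

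The period genes were scarce, apart from Per1. Per2 (chromosome 1, 91415982 to 91459324) was counted 28 and 26 times in ALP against 17 and 5 times in control. The exact Poisson 95% intervals were 18.6 to 40.5 and 17 to 38.1 in ALP, and 9.90 to 27.2 and 1.62 to 11.7 in control. Within counting error both ALP libraries overlap with control replicate A, and only control replicate B lies below them. The log2 difference of 1.39 ± 0.54 did not pass (adjusted p = 0.0979). Left out in turn, the controls gave 2.49 (A left out) and 0.78 (B left out), so its size rests on which control is kept. Per3 (chromosome 4, 151003652 to 151044665) measured 5.44 and 3.62 CPM in ALP and 4.81 and 4.0 CPM in control. Its groups overlapped, with a log2 difference of 0.05 ± 0.28 and an interval of -0.66 to 0.75. The groups of the other 9 members did not overlap, which also held for 75.7% of all genes tested. Per1, which is no member and was chosen here after its values were seen, measured 94.3 and 74.4 CPM in ALP against 112 and 117 CPM in control. Its log2 difference of -0.44 ± 0.13 stood just outside the threshold by edgeR (adjusted p = 0.0517) and inside it by DESeq2 (adjusted p = 0.0275).

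The repressive receptors of the interlocking loop did not pass, while Rora, the gene of an activating counterpart, fell. Nr1d1 (chromosome 11, 98767932 to 98775333) measured 3.82 and 4.53 CPM in ALP against 5.78 and 4.91 CPM in control. Nr1d2 (chromosome 14, 18204054 to 18239127) measured 11.8 and 12.2 CPM in ALP against 16.5 and 13.7 CPM in control. In both genes the ALP libraries lay below the controls, by a log2 difference of -0.36 ± 0.23 for Nr1d1 and -0.33 ± 0.16 for Nr1d2, and neither passed (adjusted p = 0.269 and 0.163). The intervals, -0.93 to 0.21 and -0.74 to 0.07, both include 0. Exons of Thra, a thyroid hormone receptor gene on the opposite strand, cover 8.55% of the exon bases of Nr1d1. Thra had 2056 counts over the 4 libraries against 324 for Nr1d1, and itself fell by 1.59 on the log2 scale (adjusted p = 0.0278). The strand setting of the counting is not stated, so reads in the shared bases may belong to either gene.

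Rora encodes ROR alpha, a receptor that activates at the elements that REV-ERB receptors repress. Rora (chromosome 9, 68653786 to 69388246) fell to 15.4 and 8.15 CPM in ALP, against 37.0 and 30.2 CPM in control. The groups lay well apart, with a log2 difference of -1.50 ± 0.30 (adjusted p = 0.0223). ALP replicate B was the lower of the ALP libraries. The difference was -1.11 without ALP replicate B and -2.05 without ALP replicate A. Rorb had 1 count in each ALP library and 0 in both controls and was not tested.

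Dbp, the D-box activator that is among the most strongly cycling transcripts of many mouse tissues, was near the limit of counting. Dbp (chromosome 7, 45705088 to 45710203) was counted 13 and 15 times in ALP against 18 and 39 times in control. The Poisson intervals of the first 3 of these counts overlap, and only control replicate B, with 27.7 to 53.3, stands apart from the ALP libraries. The log2 difference of -0.92 ± 0.51 did not pass (adjusted p = 0.209) and was -0.24 without control replicate B. Exons of Sphk2 on the opposite strand cover 18% of the exon bases of Dbp. Sphk2 had 3294 counts against 85 for Dbp and fell by 0.48 on the log2 scale (adjusted p = 0.0284), so the count of Dbp is uncertain without strand.

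Better measured factors of the D-box loop fell. Tef, an activator of the same PAR bZIP family as Dbp, measured 15.3 and 12.7 CPM in ALP against 28.9 and 28.9 CPM in control. Its log2 difference was -1.04 ± 0.14 (adjusted p = 0.0151). Nfil3 (chromosome 13, 52967209 to 52981073), the bZIP repressor that opposes them, measured 39.7 and 23.3 CPM in ALP against 81.0 and 70.1 CPM in control, a log2 difference of -1.26 ± 0.25 (adjusted p = 0.0219). The activator and its antagonist were thus both lower in ALP. Their groups did not overlap, which also held for 75.7% of all genes tested. Nfil3 was lower in ALP replicate B than in A (-1.70 without A and -0.92 without B). Ciart, which encodes a repressor of the CLOCK and BMAL1 complex, measured 1.56 and 1.62 CPM in ALP against 2.72 and 2.86 CPM in control. Ciart was counted 27 and 25 times in ALP and 48 and 50 times in control. The ALP libraries were lower, but the log2 difference of -0.81 ± 0.27 did not pass. The adjusted p was 0.0716 by edgeR and 0.259 by DESeq2. Hlf, the remaining PAR bZIP gene, was counted only 18 and 11 times in ALP and 25 and 18 times in control. Its log2 difference of -0.47 ± 0.41 did not pass either (adjusted p = 0.411 by edgeR).

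**Figure D3:**
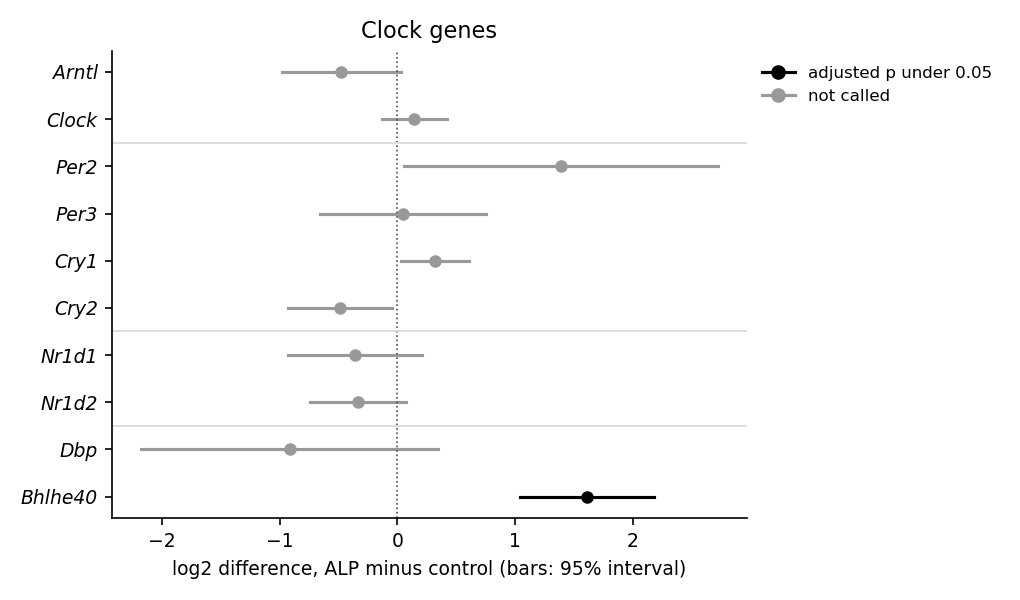
Log2 differences of the 10 clock genes, ALP minus control, from edgeR with 95% intervals before adjustment, ordered as activators, repressors, nuclear receptors and output factors. Bhlhe40, at 1.61, is the only one drawn black for an adjusted p under 0.05.

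The order of the members by level was much the same in both groups. Between genes, levels are compared as CPM per kilobase of the deposited gene length, as a description with no test. Bhlhe40 was highest in every library, at 59.8 ± 13.8 CPM per kilobase in ALP and 19.6 ± 4.97 in control (mean ± SD, n = 2 each). Cry1 followed at 8.64 and 8.59 CPM per kilobase in ALP and 7.16 and 6.64 in control, and Clock stood next at between 5.35 and 6.58. In ALP, Arntl then overlapped with Cry2 and Cry2 with Nr1d2, between 2.18 and 3.11 CPM per kilobase. In controls Arntl and Cry2 overlapped, at 3.33 to 4.13 and 3.57 to 3.63 CPM per kilobase, above Nr1d2. Nr1d1 came next in both groups. The lowest were Per3, Dbp and Per2, at 0.744 CPM per kilobase or less, of which Dbp and Per2 overlapped in ALP and Dbp and Per3 in control. Per1, in contrast, had 16.7 and 13.2 CPM per kilobase in ALP and 19.9 and 20.7 in control, and Nfil3 averaged 15.5 ± 5.73 CPM per kilobase in ALP and 37.3 ± 3.82 in control. In ALP Bhlhe40 stood above Nfil3, whereas in controls Nfil3 stood above all 10 genes.

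**Figure D4:**
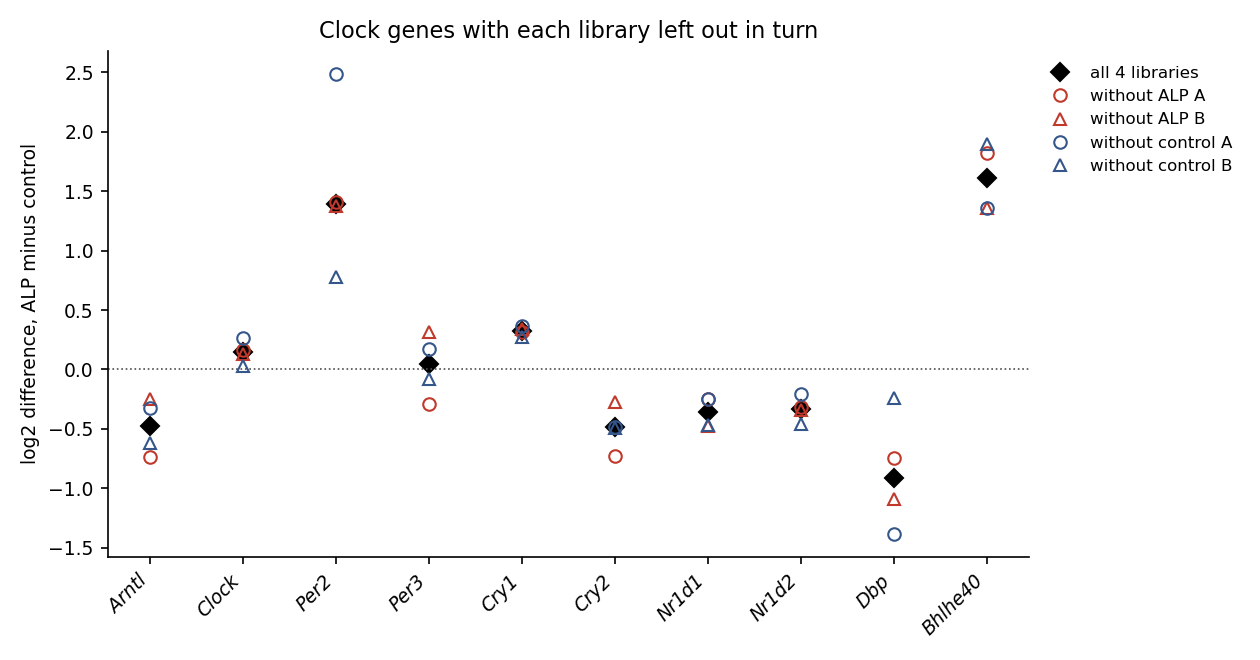
Log2 differences of the 10 clock genes from edgeR with all 4 libraries (black) and with each library left out in turn (open symbols). Bhlhe40 stays between 1.36 and 1.90, Per2 ranges from 0.78 to 2.49 with the control that is kept, and Per3 lies on both sides of 0.

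Of 14 further genes of the clock loops, 13 were tested, 2 rose and 6 fell, with a median log2 difference of -0.51. This is 8 of 13, against 30.9% of all genes tested. Besides Npas2, Rora, Tef and Nfil3 the decreases included Cipc, a CLOCK-interacting repressor gene that was named after its values were seen, at -0.51 ± 0.14 (adjusted p = 0.0411). The 2 that rose were Timeless and Tipin, partners whose mammalian proteins stabilise DNA replication forks and whose role in the mammalian clock is less settled. Timeless measured 29.1 and 32.6 CPM in ALP against 13.1 and 14.9 CPM in control (log2 difference 1.14 ± 0.14, adjusted p = 0.0149). Tipin measured 39.2 and 49.3 CPM in ALP against 20.4 and 19.8 CPM in control (1.14 ± 0.15, adjusted p = 0.0149). Of the 4 proliferation markers, Pcna, Mcm2 and Top2a rose by 0.84, 1.21 and 0.42, and Mki67, at 0.21, did not pass. Any link of these markers to Timeless and Tipin was not tested.

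Of 24 genes for kinases, ubiquitin ligases, deubiquitinases and cofactors that act on clock proteins, 4 rose and 3 fell, a share of 7 of 24 against 30.9% of all genes, with a median log2 difference of -0.024. Csnk1e, which encodes a casein kinase that marks PER proteins for degradation, rose by 0.47 ± 0.12 to 68.4 ± 8.39 CPM, against 49.5 ± 1.47 CPM in control (mean ± SD, adjusted p = 0.0347), and its close partner Csnk1d was at -0.07 ± 0.08 and did not pass. Csnk1a1, of the same kinase family, fell by 0.40 ± 0.11 (adjusted p = 0.0397). Usp7, a deubiquitinase gene, rose by 0.37, Siah2, a ubiquitin ligase gene whose protein acts on REV-ERB alpha, rose by 0.92, and Sfpq, a PER-associated corepressor gene, rose by 0.37. Ncor1, a corepressor gene for the REV-ERB receptors that was named after its values were seen, fell by 0.36 ± 0.10 (adjusted p = 0.0464). It did not pass with edgeR's older quasi-likelihood fit (adjusted p = 0.0519).

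Of 11 genes known as clock outputs in mouse tissues or as E-box targets, 4 rose and 1 fell, a share of 5 of 11 against 30.9% of all genes, with a median log2 difference of 0.30. Noct, which encodes the rhythmic phosphatase nocturnin, measured 32.0 and 51.7 CPM in ALP against 15.3 and 14.8 CPM in control (log2 difference 1.47 ± 0.24, adjusted p = 0.0158). Por, the cytochrome P450 reductase gene, rose by 0.65 ± 0.12, and the growth genes Ccnd1 and Myc rose by 2.39 ± 0.22 and 0.87 ± 0.10. A gene on the opposite strand covers 23.4% of the exon bases of Ccnd1, with 1157 counts against 13557 for Ccnd1. The decrease was in Tsc22d3, also called Gilz, a glucocorticoid-induced gene that cycles in many tissues. It measured 59.4 and 27.6 CPM in ALP against 154 and 139 CPM in control (-1.75 ± 0.34, adjusted p = 0.0207), and was lower in ALP replicate B, as Rora and Nfil3 were. Wee1, the mitotic inhibitor kinase gene known as an E-box target in mouse liver, measured 62.7 and 59.6 CPM in ALP against 49.4 and 49.9 CPM in control, and its log2 difference of 0.30 ± 0.09 missed the threshold (adjusted p = 0.0537). Nampt, Lpin1, Tspan4, Dtx4 and Cdkn1a did not pass.

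**Figure D5:**
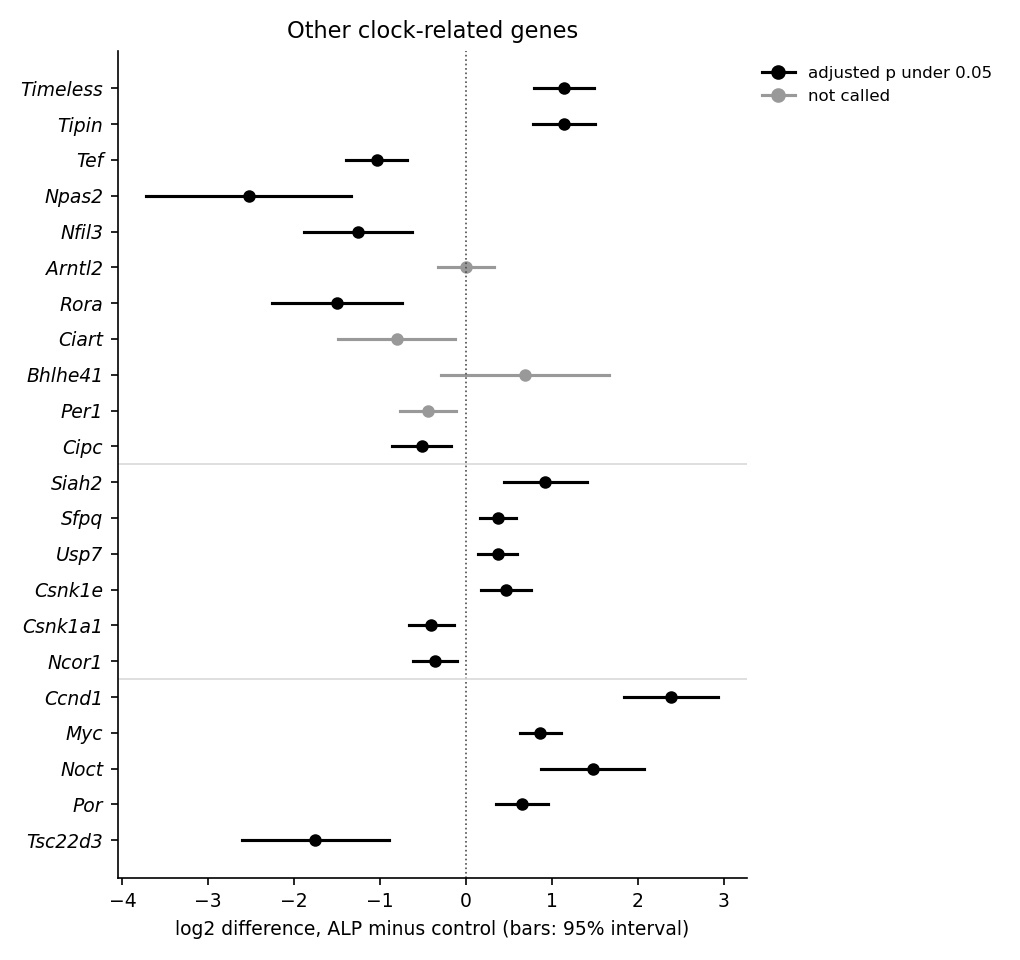
Log2 differences, ALP minus control, of the named genes outside the 10 members, from edgeR with 95% intervals before adjustment, in blocks of other loop genes, modifiers of clock proteins and outputs. Npas2, Tsc22d3, Rora, Nfil3 and Tef lie below -1 and Ccnd1, Noct, Timeless and Tipin above 1.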

How the data were processed

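Total RNA of mouse epidermal stem cell cultures was sequenced, per the labels' protocols. The deposited table gives raw counts per gene and library, the authors' mean signal per group, and the log2 fold changes and p-values of the authors' own comparison. Per the submitters' processing notes, the aligner was HISAT2 2.0.5 and the counter featureCounts 1.5.0-p3. Those notes name GRCh38, but the gene identifiers are from mouse: 54495 of 54532 are in GENCODE M21, and 98.2% of these have its GRCm38 position. The sources used here do not give the library kit, its strand or the handling of multiply mapped reads. The table's columns carry numbers other than the labels', so each was assigned to its group only. The mean signal was not used, nor were 4 per-library columns of normalized values; levels between genes are CPM per kilobase, computed from the counts and the deposited gene length.

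The counts were tested with edgeR 4.0.16 (R 4.3.3): filterByExpr (minimum count 10, minimum total 15), TMM scaling, and glmQLFit (legacy = FALSE) with glmQLFTest, two-sided, on group alone, with 2 residual degrees of freedom. Standard errors are the log2 difference over the square root of F. DESeq2 1.42.0, limma 3.58.1 (voom), other scaling, no filter and leaving out each library were alternatives. The fit was tested on simulated data with the same dispersion for every gene, a check of the code and not of its error rate on these libraries. Members, gene lists and tests were chosen with earlier results of these data known, and the legacy = FALSE setting after seeing them. Named genes were the 10 members, up to 6 called genes with the smallest p of each further list, and Npas2, Arntl2, Rora, Ciart, Tef, Nfil3 and Bhlhe41. Per1, Cipc and Ncor1 were added after their values were seen, as were the uncalled Csnk1d, Hlf, Rorb, Wee1, Nampt, Lpin1, Tspan4, Dtx4 and Cdkn1a. Some genes of these lists enter the counts but are not reported here by name. The exact Poisson intervals cover counting error only, unlike the edgeR intervals, which also include the spread between libraries. The sources used here name no molecular identifiers, so duplicate reads may be among the counts.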

Additional observations from a re-analysis of the deposited data

How the results depend on the processing

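With 2 libraries per group, the calls depend on both controls and on the low-count filter. Without the filter edgeR called 0 genes over all, 0 members and 0 genes of the 3 further lists, although 7068 genes and 2 members that were higher and 1 that was lower had an unadjusted p under 0.05; Bhlhe40 kept a difference of 1.61 at an adjusted p of 0.0524, and its adjusted p lay between 1.43e-10 and 0.128 over all alternatives. Leaving out each library in turn, the genes called over all ranged from 0 (without either control, with 3380 and 4131 at an unadjusted p under 0.05) to 7518 (without ALP replicate A), members called higher from 0 to 1, members called lower from 0 to 2, other loop genes from 0 to 9, modifier genes from 0 to 11 and output genes from 0 to 9. DESeq2 called 4119 genes, limma-voom 4741, the older edgeR fit 4188 and edgeR with DESeq2 size factors 4325, and each called Bhlhe40 alone among the members. Genes whose fitted difference was near 0 changed sign: Per3 ranged from -0.29 to 0.31 and Arntl2 from -0.084 to 0.083 with a library left out, and Arntl2 was at 0.0025 by DESeq2. The cause was not tested. The planned limma fit to the deposited FPKM is not given, because the columns were tied only to groups and 1 measure, the counts, was kept. No paired analysis was possible because the table's columns do not carry the labels' replicate numbers. Depth limits Per2, Dbp, Npas2, Bhlhe41 and Hlf, with at most 39 counts in a library.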
